A study of Mus musculus with 8 samples.

Results

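The 37 genes described here encode the folding machinery of the endoplasmic reticulum and the parts of its stress response. They were taken from the table by name: the chaperones and disulfide enzymes, the stress sensors, the genes under the transcription factor ATF4, the degradation machinery and the protein-conducting channel. All 37 had a row among the 11996 of the deposited table, and all 37 were among the 11400 rows that passed a filter on low values. RNA had been sequenced from thioglycolate-elicited peritoneal macrophages of C57BL/6 mice, cells that an irritant draws into the peritoneal cavity and that had adhered to plastic for 24 h. The 4 groups were Ptpn1-/- macrophages with IL-10 (100 ng/ml for 4 h), Ptpn1-/- macrophages after mock treatment, wild-type macrophages with the same IL-10, and wild-type macrophages after mock treatment. The labels list 2 samples per group and say neither how many mice a sample came from nor which part of Ptpn1 was deleted. The gene encodes PTP1B, a tyrosine phosphatase that acts on receptors and JAK kinases, and the comparisons ask how the macrophage response to IL-10, an anti-inflammatory cytokine, depends on it.

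Proteins that enter the secretory pathway are threaded into the endoplasmic reticulum through the SEC61 channel, folded there by chaperones and given disulfide bonds, and those that fail are sent back to the cytosol for destruction. When unfolded protein builds up, 3 membrane sensors signal: IRE1 alpha (Ern1) splices the mRNA of Xbp1, ATF6 is cut to free a transcription factor, and PERK (Eif2ak3) phosphorylates the initiation factor eIF2 alpha, which slows translation but favours that of Atf4. The IRE1 and ATF6 arms mainly raise chaperones and degradation genes, whereas ATF4 raises amino acid and redox genes along with Ddit3 (CHOP). Other kinases that sense amino acid lack, double-stranded RNA or heme lack feed into the same ATF4 arm. Macrophages secrete many proteins and lean on this machinery.

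Each value is the single signal the authors deposited for a group, in their own normalized units, so there is no SD or n for any of them and no difference could be set against the spread between samples. Sequencing depth is unknown. A difference is the log2 ratio of 2 signals after 26.7 units, or 1 ppm of the column total, were added to both. A difference of at least 1.5-fold (0.58 on the log2 scale) stands in for a test's call. In these bulk samples fewer cells of a type and less RNA per cell cannot be told apart. As a check of the labels, Ptpn1 itself stood at 5391.5 units in Ptpn1-/- cells with IL-10, 3836.5 in Ptpn1-/- mock, 6736 in wild type with IL-10 and 4960.5 in wild-type mock, so it was lower but present in the knockout columns. Its genotype log2 ratio was -0.37 under mock and -0.32 with IL-10, at 91.4% and 92.6% of the 500 rows nearest in mean signal. That is no larger in size than the genotype difference of Trib3 (0.37 and 0.35), so the check of genotype is weak. The STAT3 target Socs3 had an IL-10 log2 ratio of 3.46 in Ptpn1-/- and 3.28 in wild-type cells.

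The folding and degradation machinery was near level over the 4 groups, and the largest of the small differences lay in the ATF4 arm. Of the 37 genes, 30 had all 4 signals within 0.32 of each other on the log2 scale, which is 81.1% of them against 59.3% of all rows. Trib3 and Chac1, both of the ATF4 arm, were the 2 genes whose highest signal was at least 1.5 times the lowest, which is 5.4% of the 37 against 14.4% of all rows. These shares were taken without the added units. All rows reach down to a mean of 26.7 units, whereas the lowest mean of the 37 genes was 197.5 units, in Chac1. The shares are thus not matched for signal and do not show that the 37 genes vary less than rows of like signal. In 1 comparison a single gene passed the limit of 1.5-fold: Chac1, higher with IL-10 in wild-type cells. With IL-10 in Ptpn1-/- cells 0 of 37 genes passed, where 3.12% of all rows did. With IL-10 in wild-type cells 1 of 37 passed, against 1.96% of all rows. Between Ptpn1-/- and wild type 0 of 37 passed under mock treatment, against 2.83% of all rows, and 0 of 37 passed with IL-10, against 2.79%. With 37 genes, neither a count of 0 nor a count of 1 can be set apart from these shares. The medians of the 37 log2 ratios were 0.02 for IL-10 in Ptpn1-/- cells, 0.00 for IL-10 in wild type, 0.02 between the genotypes under mock and 0.01 with IL-10. The medians of all rows were -0.01, 0.00, 0.02 and 0.01 in the same comparisons.

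**Figure D1:**
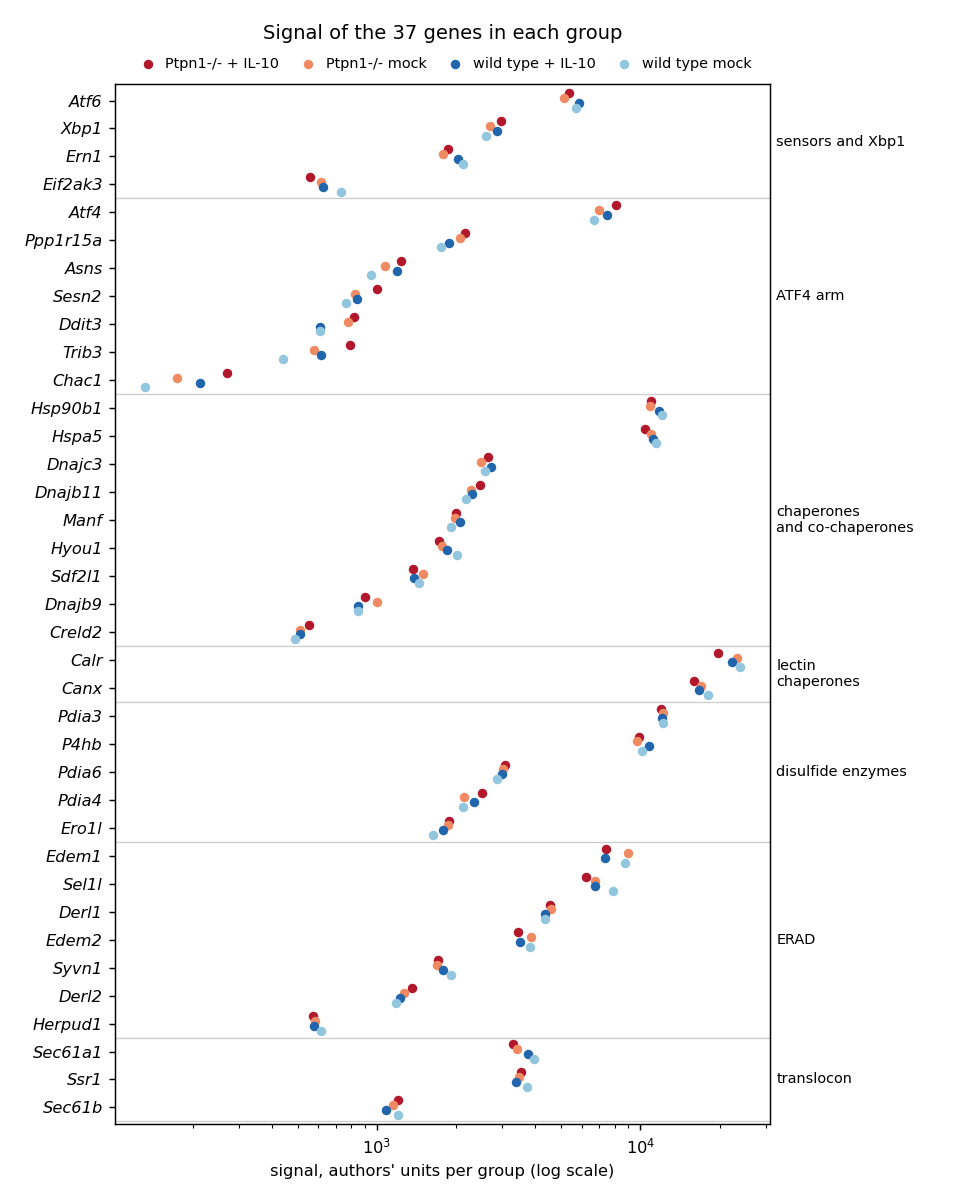
Signal of each of the 37 genes (authors' units, log axis) in the 4 groups, with genes grouped by role and ordered by mean signal within a role. Each point is 1 group's value with no error available; the 4 points of most genes lie nearly on top of each other, and those of Trib3 and Chac1 spread the most.

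Levels between genes are best compared per length, and the sources used here do not say whether the authors had already divided by it. Calr had the highest signal in all 4 groups and Chac1 the lowest. Divided by the longest annotated transcript, Calr also came first in wild-type mock cells, at 10941 units per kb, followed by Pdia3 at 4400, Canx at 4243, Hsp90b1 at 3771 and P4hb at 3555. Chac1 came last at 80.6 units per kb, below Eif2ak3 at 161. The rows of Hspa5, Calr, Hyou1, Trib3, Edem2, Sel1l and Asns span under 50% of the gene's length in RefSeq, with Hyou1 at 5.1% and Trib3 at 15.6%. Which exons their values count is not given.

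**Figure D2:**
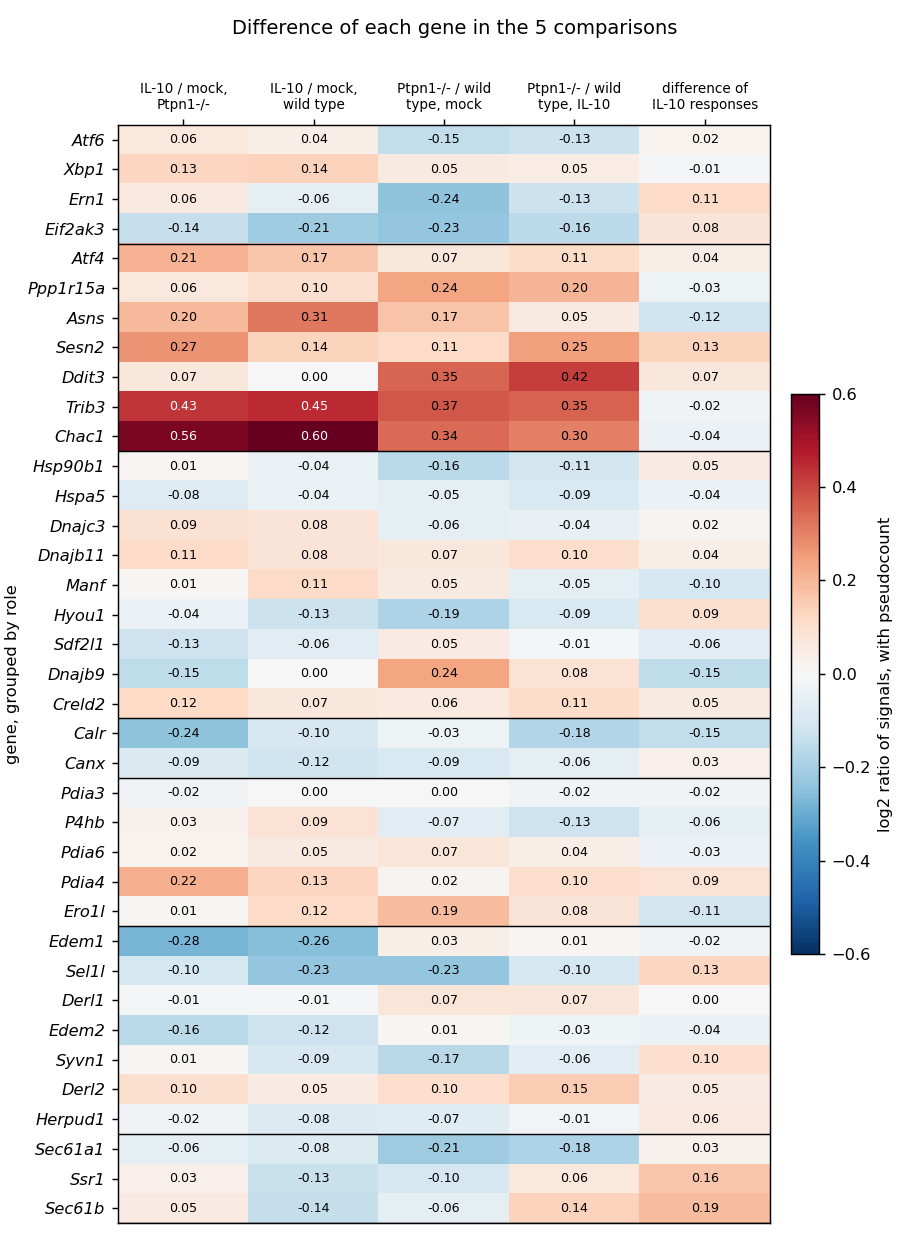
Log2 ratio of signals (colour and printed value) for each gene, in rows by role, in the 5 comparisons, in columns. The block of higher values lies in the ATF4 arm, with Chac1 at 0.56 and 0.60 and Trib3 at 0.43 and 0.45 for IL-10 in Ptpn1-/- and wild-type cells.

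Among the sensors, Eif2ak3 and Ern1 were slightly lower in Ptpn1-/- than in wild-type cells. Eif2ak3, which encodes PERK, stood at 557 and 615 units in Ptpn1-/- cells with IL-10 and mock, and at 624.5 and 728 in wild type with IL-10 and mock. It was lower in the knockout under both treatments (log2 ratio -0.23 under mock and -0.16 with IL-10) and lower with IL-10 in both genotypes (-0.14 in Ptpn1-/- and -0.21 in wild type). Ern1 stood at 1863 and 1790 units in Ptpn1-/- cells with IL-10 and mock, and at 2036.5 and 2119.5 in wild type. Its genotype difference was -0.24 under mock and -0.13 with IL-10. Both groups of knockout cells thus lay below both wild-type groups for Eif2ak3 and for Ern1. The same held for Atf6, Hspa5, Hsp90b1, Hyou1, P4hb, Syvn1 and Sec61a1, so this order is not particular to these sensors. Its share of all rows was not taken. Atf6 had genotype log2 ratios of -0.15 under mock and -0.13 with IL-10. Eif2ak3, Ern1 and Atf6 have long transcripts, and across all rows the genotype difference was lower for longer ones. With the running median over transcript length subtracted, the mock values were -0.18 for Eif2ak3, -0.06 for Ern1 and 0.03 for Atf6. Xbp1 stood at 2958.5 and 2700.5 units in Ptpn1-/- cells with IL-10 and mock, and at 2863.5 and 2602 in wild type, an IL-10 log2 ratio of 0.13 and 0.14. A value per gene does not tell the spliced from the unspliced Xbp1 mRNA, so IRE1 activity cannot be read from it.

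The 7 genes of the ATF4 arm were higher with IL-10 and higher in Ptpn1-/- than in wild-type cells, by small amounts. With IL-10 all 7 were above 0 in Ptpn1-/- cells (median log2 ratio 0.21), and 6 of 7 were above 0 in wild type (median 0.17), where Ddit3 was level. Between Ptpn1-/- and wild type all 7 were above 0 under both treatments, and the median was 0.24 in mock cells and 0.25 in those given IL-10. Of all rows, 45.2% and 49.6% were above 0 for IL-10 in Ptpn1-/- and wild type, and 53.5% and 51.8% for genotype under mock and with IL-10. For the 30 genes outside the arm the medians were 0.01 and -0.04 for IL-10 in Ptpn1-/- and wild type, and -0.04 and -0.02 for genotype under mock and with IL-10.

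Chac1, which encodes an enzyme that breaks down glutathione, stood at 270.0 units in Ptpn1-/- cells with IL-10, 174 in Ptpn1-/- mock, 214 in wild type with IL-10 and 132 in wild-type mock. It was the gene with the largest IL-10 difference of the 37 in both genotypes. The log2 ratios were 0.56 in Ptpn1-/- and 0.60 in wild type, and of the 500 rows nearest in mean signal 97.2% and 99% had a smaller or equal difference in size. Trib3, a pseudokinase gene that ATF4 and CHOP induce and whose product restrains them, stood at 788.5 and 579 units in Ptpn1-/- cells with IL-10 and mock, and at 612 and 441 in wild type. Its IL-10 log2 ratios were 0.43 and 0.45, at 95.2% and 96.6% of the nearest rows. The 4 groups stood in the same order for Chac1 and Trib3, with Ptpn1-/- with IL-10 highest, then wild type with IL-10, then Ptpn1-/- mock, and wild-type mock lowest. In mm9, the row of Chac1 (ENSMUSG00000027313) lies at chr2:119176965-119180117 on the plus strand, and that of Trib3 (ENSMUSG00000032715) at chr2:152168674-152169706 on the minus strand.

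Ddit3 differed by genotype and hardly by IL-10. This gene, which encodes CHOP, a factor linked to death under lasting stress, stood at 820.0 and 780.0 units in Ptpn1-/- cells with IL-10 and mock, and at 607.5 in both wild-type groups. The genotype log2 ratio was 0.35 under mock and 0.42 with IL-10, at 90.0% and 94.8% of the nearest rows. Its row (ENSMUSG00000025408, mm9 chr10:126727830-126733344, plus strand) overlaps that of Mars, and whether the counting used strand is not given. Mars had genotype log2 ratios of -0.04 under both treatments. Ppp1r15a (GADD34), which brings a phosphatase to eIF2 alpha and so restores translation, was likewise higher by genotype, at 2158.5 and 2065 units in Ptpn1-/- cells with IL-10 and mock, against 1872 and 1750.0 in wild type. Its genotype log2 ratio was 0.24 under mock and 0.20 with IL-10, and its IL-10 log2 ratios were 0.06 and 0.10.

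Asns, asparagine synthetase, and Sesn2, a leucine sensor that restrains mTORC1, were higher with IL-10. Asns stood at 1234 and 1074 units in Ptpn1-/- cells with IL-10 and mock, and at 1188 and 950.0 in wild type, with IL-10 log2 ratios of 0.20 and 0.31. Sesn2 stood at 1001 and 826.5 units in Ptpn1-/- cells with IL-10 and mock, and at 839 and 761.5 in wild type, with IL-10 log2 ratios of 0.27 and 0.14. Atf4, which is controlled mostly at translation, had the highest signal of the arm, at 8075 and 6989.5 units in Ptpn1-/- cells with IL-10 and mock, and at 7485 and 6667 in wild type. Its IL-10 log2 ratios were 0.21 and 0.17 and its genotype log2 ratios 0.07 and 0.11 under mock and with IL-10. Ptpn1-/- with IL-10 was the highest group for each of the 7 genes. Outside the arm it was also the highest for Pdia4, Pdia6, Dnajb11, Creld2, Xbp1, Derl2 and Ero1l, so this is not particular to the arm. The share of all rows with this group highest was not taken.

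**Figure D3:**
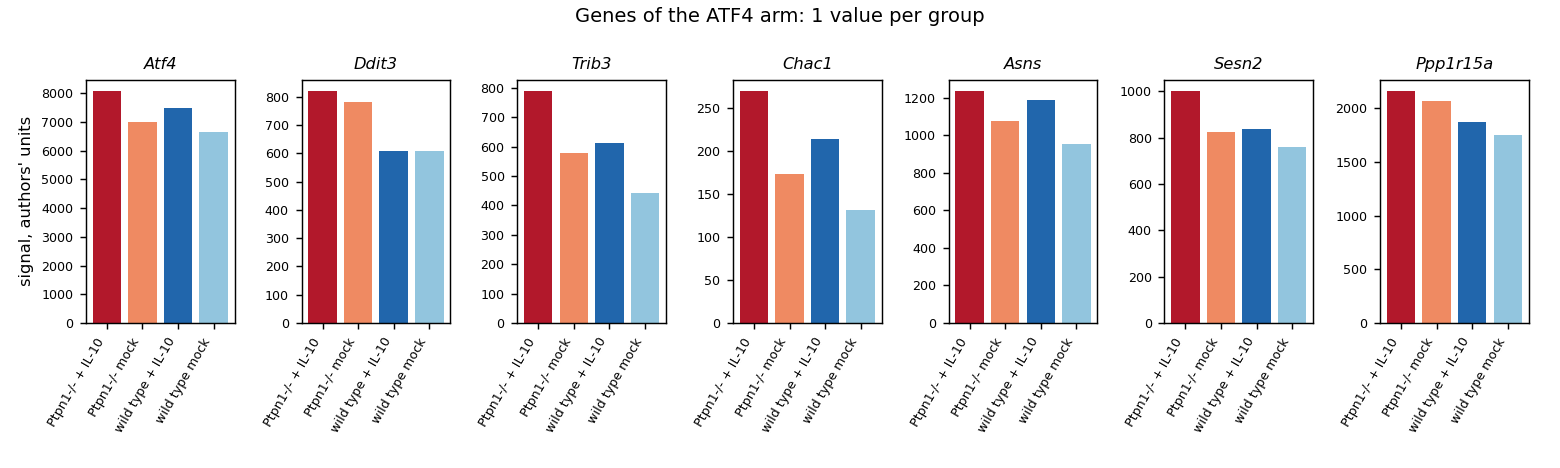
Signal (authors' units, each axis from 0) of the 7 genes of the ATF4 arm, with 1 bar per group and no error available. The bar of Ptpn1-/- with IL-10 is the tallest in each panel, at 270.0 units for Chac1 and 788.5 for Trib3, and Ddit3 has equal bars in both wild-type groups.

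The ATF4 arm holds shorter transcripts than the other members, with a median of 2019 bases against 3173.5. Across all rows the log2 ratio was lower for longer transcripts, with Spearman's rho of -0.53 between genotypes under mock, -0.40 between genotypes with IL-10, -0.36 for IL-10 in wild type and -0.13 for IL-10 in Ptpn1-/- cells (11222 rows with a length, which share the normalization of the 4 columns). With the running median over length subtracted, the medians of the arm were 0.19 for IL-10 in Ptpn1-/- cells, 0.13 for IL-10 in wild type, 0.15 between genotypes under mock and 0.21 with IL-10. For genotype 6 of 7 genes were then above 0 under each treatment, with Atf4 at -0.04 under mock and Asns at -0.02 with IL-10. Ddit3 had 0.15 under mock and 0.30 with IL-10, Chac1 0.19 and 0.21, and Trib3 0.26 and 0.28. The part of length in these differences was not tested further.

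**Figure D4:**
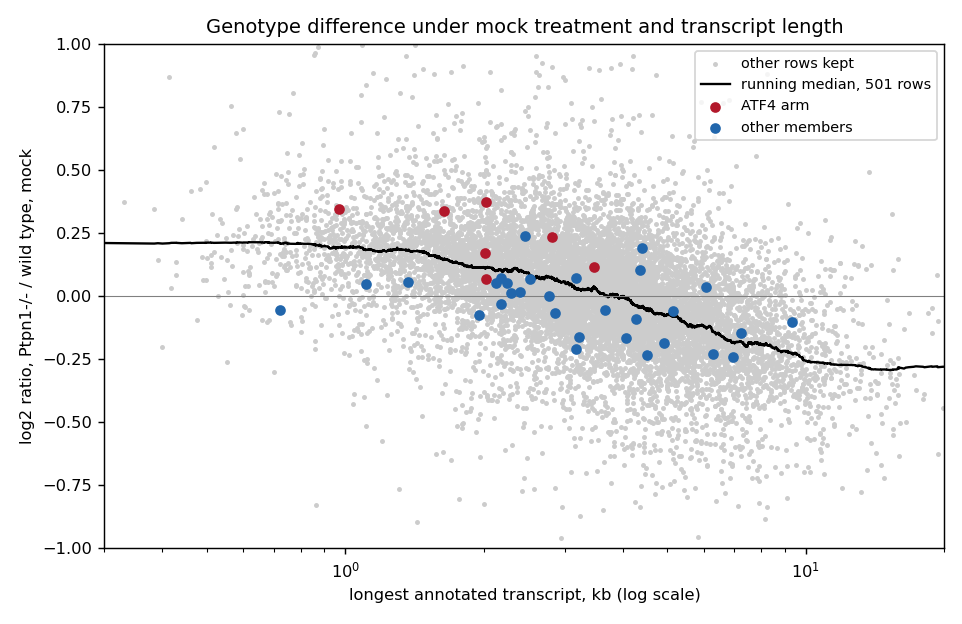
Log2 ratio of Ptpn1-/- over wild type under mock treatment against the longest annotated transcript (kb, log axis), for all rows with a length (grey, 58 rows lie outside the axes), with the running median over length as a line. Genes of the ATF4 arm lie above the line except Atf4, and the other members scatter around 0 and mostly below the line.

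Promoters of 32 of the 37 genes were found in a RefSeq table on GRCm38.p6, with 250 bases before and 50 after each gene's start. No entry was used for Atf6, Manf, Hyou1, Derl1 and Sec61a1. The element that ATF4 binds together with C/EBP factors, searched as TGATGNAA on both strands, was in the windows of Chac1, Trib3 and Asns, of 7 genes in the arm, and of Herpud1, against 3.97% of all 32851 windows. Chac1, Trib3 and Asns had the 3 largest IL-10 differences of the 37 genes in wild type. In Ptpn1-/- cells Chac1 and Trib3 came first, but Edem1, Sesn2, Calr, Pdia4 and Atf4, which have no match in this window, had larger differences than Asns. Herpud1 had IL-10 log2 ratios of -0.02 in Ptpn1-/- and -0.08 in wild type. A match of letters is a description and does not show a bound site. The stretches are shown in the direction of the gene, with the match in capitals (for Chac1, Trib3 and Herpud1 the match reads on the other strand), because they set Chac1, Trib3 and Asns beside a gene with the same letters and a level signal. Stretches that lie in a transcribed part are cut to 30 bases.
Chac1 (chr2:119351003-119351102, plus strand): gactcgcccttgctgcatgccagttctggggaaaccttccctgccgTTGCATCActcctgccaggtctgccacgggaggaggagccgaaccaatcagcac
Trib3 (chr2:152344028-152344057, minus strand): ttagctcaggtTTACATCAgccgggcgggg
Asns (chr6:7693214-7693243, minus strand): tcccagccacaTGATGAAActtcccgcacg
Herpud1 (chr8:94386271-94386370, plus strand): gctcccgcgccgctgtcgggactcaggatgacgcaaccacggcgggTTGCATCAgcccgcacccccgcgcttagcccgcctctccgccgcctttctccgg

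The chaperones of the lumen were nearly level. Hspa5 (BiP), the Hsp70 of the endoplasmic reticulum and the usual readout of its stress, stood at 10457.5 and 11018.5 units in Ptpn1-/- cells with IL-10 and mock, and at 11142.5 and 11446.5 in wild type. Its IL-10 log2 ratios were -0.08 and -0.04 and its genotype log2 ratios -0.05 under mock and -0.09 with IL-10. Hsp90b1 (GRP94), the Hsp90 of the compartment, stood at 10946.5 and 10861 units in Ptpn1-/- cells with IL-10 and mock, and at 11823 and 12150.0 in wild type. Its row overlaps that of 1810014B01Rik. Over the 9 chaperones and co-chaperones the IL-10 log2 ratios ranged from -0.15 to 0.12 in Ptpn1-/- and from -0.13 to 0.11 in wild type. Their genotype log2 ratios ranged from -0.19 to 0.24 under mock and from -0.11 to 0.11 with IL-10. The upper end under mock was Dnajb9 (ERdj4), a co-chaperone of BiP and a known target of XBP1, at 902 and 1005 units in Ptpn1-/- cells with IL-10 and mock, and 849 and 848 in wild type. It was highest in Ptpn1-/- mock cells and had a genotype log2 ratio of 0.24 under mock and 0.08 with IL-10. The lower end was Hyou1, an exchange factor for BiP, at 1726 and 1769.5 units in Ptpn1-/- cells with IL-10 and mock, and 1842.5 and 2018 in wild type. The stress-inducible Creld2, Manf and Sdf2l1 had log2 ratios between -0.13 and 0.12 in these 4 comparisons.

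The endoplasmic reticulum stress element, which ATF6 binds with the factor NF-Y, was searched as CCAAT, 9 bases of any kind and CCACG on both strands. It was in the windows of 8 of 32 genes, namely Hspa5, Hsp90b1, Calr, Canx, Pdia6, Dnajc3, Creld2 and Syvn1, against 0.119% of all windows. None of the 7 genes of the ATF4 arm had these letters in this window. The 8 genes had IL-10 log2 ratios of -0.24 (Calr) to 0.12 (Creld2) in Ptpn1-/- cells and of -0.12 (Canx) to 0.08 (Dnajc3) in wild type. The stretches of Hspa5, Creld2 and Hsp90b1 show the element in genes that were level here, with the match in capitals. Creld2 has it on the other strand, and Hsp90b1 has 2 copies, of which the one farther from the start is given.
Hspa5 (chr2:34772019-34772048, plus strand): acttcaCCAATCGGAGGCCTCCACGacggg
Creld2 (chr15:88819479-88819578, plus strand): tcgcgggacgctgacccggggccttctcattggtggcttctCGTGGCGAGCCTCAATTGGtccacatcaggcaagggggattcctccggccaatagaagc
Hsp90b1 (chr10:86705595-86705694, minus strand): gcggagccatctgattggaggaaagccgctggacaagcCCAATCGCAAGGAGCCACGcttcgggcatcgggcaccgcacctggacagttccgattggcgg

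The lectin chaperones, which hold glycoproteins while they fold, were slightly lower with IL-10. Calr (calreticulin) stood at 19734.5 and 23367 units in Ptpn1-/- cells with IL-10 and mock, and at 22331 and 23895.5 in wild type, with IL-10 log2 ratios of -0.24 and -0.10. Canx (calnexin) stood at 16069.5 and 17071 units in Ptpn1-/- cells with IL-10 and mock, and at 16729.5 and 18164.5 in wild type, with IL-10 log2 ratios of -0.09 and -0.12. Calr ranked 148 and 114 in Ptpn1-/- cells with IL-10 and mock, and 122 and 111 in wild type, of 11996 rows. It was 1 of the 146 rows with a mean above 20000 units, and the single member among them.

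The disulfide enzymes were nearly level, with the largest IL-10 difference in Pdia4. Pdia3 (ERp57), which works with both lectin chaperones, stood at 11992 and 12187.5 units in Ptpn1-/- cells with IL-10 and mock, and at 12150.0 and 12187.5 in wild type. Pdia4 (ERp72) stood at 2507.5 and 2152 units in Ptpn1-/- cells with IL-10 and mock, and at 2331 and 2128 in wild type, with IL-10 log2 ratios of 0.22 and 0.13. P4hb, protein disulfide isomerase itself, and Pdia6 had log2 ratios between -0.13 and 0.09 in the 4 comparisons. Ero1l, the oxidase that recharges these enzymes, had a genotype log2 ratio of 0.19 under mock and 0.08 with IL-10.

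In the degradation machinery Edem1 was lower with IL-10 in both genotypes. Edem1, a mannosidase-like protein that marks misfolded glycoproteins for export, stood at 7415 and 8989 units in Ptpn1-/- cells with IL-10 and mock, and at 7345 and 8778.5 in wild type. Both IL-10 values lay below both mock values, as they did for Edem2, Sel1l, Herpud1, Calr, Canx, Pdia3 and Sdf2l1. The share of all rows with this order was not taken. The log2 ratios of Edem1 were -0.28 and -0.26, the lowest of the 37 genes in each genotype, at 83.4% and 82.6% of the nearest rows. With the length trend subtracted they were -0.21 and -0.17. Calr at -0.25 was then lower in Ptpn1-/- cells, and Sec61b at -0.22 in wild type. Edem2, which is related to Edem1, stood at 3428 and 3835 units in Ptpn1-/- cells with IL-10 and mock, and at 3489.5 and 3805.5 in wild type. Its IL-10 log2 ratios were -0.16 and -0.12. Sel1l, the partner of the ubiquitin ligase Syvn1 (HRD1), stood at 6246 and 6716 units in Ptpn1-/- cells with IL-10 and mock, and at 6714 and 7887.5 in wild type. Wild-type mock was the highest group of Sel1l, and its genotype log2 ratio of -0.23 under mock was -0.09 with the length trend subtracted. Syvn1, the channel proteins Derl1 and Derl2 and the stress-inducible Herpud1 had IL-10 log2 ratios between -0.09 and 0.10.

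Of the translocon, Sec61a1, the pore subunit, was lower in Ptpn1-/- cells, at 3289 and 3419 units with IL-10 and mock, against 3739.5 and 3962.5 in wild type. Its genotype log2 ratio was -0.21 under mock and -0.18 with IL-10, at 72.4% and 79.0% of the nearest rows, and -0.24 and -0.19 with the length trend subtracted. Sec61b, a small subunit of the same channel, stood at 1198.5 and 1157 units in Ptpn1-/- cells with IL-10 and mock, and at 1087.5 and 1203 in wild type. Ssr1, of the translocon-associated TRAP complex, stood at 3528 and 3452 units in Ptpn1-/- cells with IL-10 and mock, and at 3378 and 3708 in wild type. For Sec61b and Ssr1 wild-type mock was the highest group, and IL-10 log2 ratios were above 0 in Ptpn1-/- (0.05 and 0.03) and below 0 in wild type (-0.14 and -0.13). With the length trend subtracted the wild-type value was -0.22 for Sec61b and 0.01 for Ssr1, so the opposite direction was lost for Ssr1.

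The difference between the IL-10 log2 ratios of Ptpn1-/- and wild type asks whether the response itself differed. None of the 37 genes reached 1.5-fold, against 0.763% of all rows, and none reached a limit of 0.32, against 6.55%. The largest differences upward were 0.19 in Sec61b, 0.16 in Ssr1 and 0.13 in Sesn2, and downward -0.15 in Dnajb9, -0.15 in Calr and -0.12 in Asns. Chac1 and Trib3 differed by -0.04 and -0.02. The 2 IL-10 responses share no column. Of the 37 genes, 30 had the same sign in both (17 above 0 and 13 below 0), or 81.1%, against 66.7% of all rows. The genotype differences under mock and with IL-10 share no column either, and 31 of 37 genes had the same sign in both, or 83.8%, against 75.1%. Whether the same mice gave both the mock and the IL-10 cells is not in the labels.

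At a lower limit of 0.32 on the log2 scale 2 or 3 of the 37 genes passed in each of the 4 comparisons, a share near that of all rows. Chac1 and Trib3 were higher with IL-10 in Ptpn1-/- cells and in wild type, where 5.95% and 4.65% of all rows were. Trib3, Ddit3 and Chac1 were higher in Ptpn1-/- under mock, where 6.92% of all rows were, and Ddit3 and Trib3 with IL-10, where 5.57% were. With the length trend subtracted none of these genotype differences reached 0.32, whereas Chac1 and Trib3 still passed it for IL-10 in both genotypes, at 0.57 and 0.40 in Ptpn1-/- cells and 0.54 and 0.38 in wild type. No member was lower by that much in any of these comparisons, where 4.46%, 4.24%, 7.35% and 5.61% of all rows were. With 37 genes such counts cannot be set apart from these shares.

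The rest of the pathway, 131 further genes in 7 lists of which 128 passed the filter, held few large differences. Nupr1, a small stress-induced chromatin protein gene, was the 1 gene of 128 past 1.5-fold, with IL-10 in both genotypes. Of all rows, 3.12% passed with IL-10 in Ptpn1-/- cells and 1.96% in wild type. It stood at 683.5 and 388.5 units in Ptpn1-/- cells with IL-10 and mock, and at 535.5 and 337.5 in wild type, with log2 ratios of 0.77 and 0.63. The list that holds Nupr1, 31 kept ATF4 targets and amino acid response genes, had 23 members above 0 with IL-10 in Ptpn1-/- cells and 26 in wild type. The medians were 0.09 and 0.11, and 45.2% and 49.6% of all rows were above 0. Its other values lay under the limit. Mthfd2, a mitochondrial folate enzyme, had IL-10 log2 ratios of 0.35 and 0.38, and the cystine carrier Slc7a11 went the other way at -0.28 and -0.42. Between the genotypes the median of this list was -0.03 in mock cells and 0.00 in those given IL-10, where the 7 members of the arm had 0.24 and 0.25. The 23 further folding genes had IL-10 medians of -0.01 in Ptpn1-/- and 0.01 in wild type, and the 18 kept further degradation genes -0.03 and -0.03. The 14 further genes of stress signalling had -0.07 and -0.09, and the 10 of vesicle exit and return 0.02 and 0.03. The 20 genes of translocation and glycosylation had medians of -0.05 and 0.09 with IL-10, and 17 of 20 were above 0 between genotypes under mock (median 0.17, or 0.08 with the length trend subtracted), where 53.5% of all rows were. With IL-10 9 of 20 were above 0 between genotypes, with a median of -0.02. The 12 cytosolic heat shock genes had IL-10 medians of 0.01 and 0.03.

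**Figure D5:**
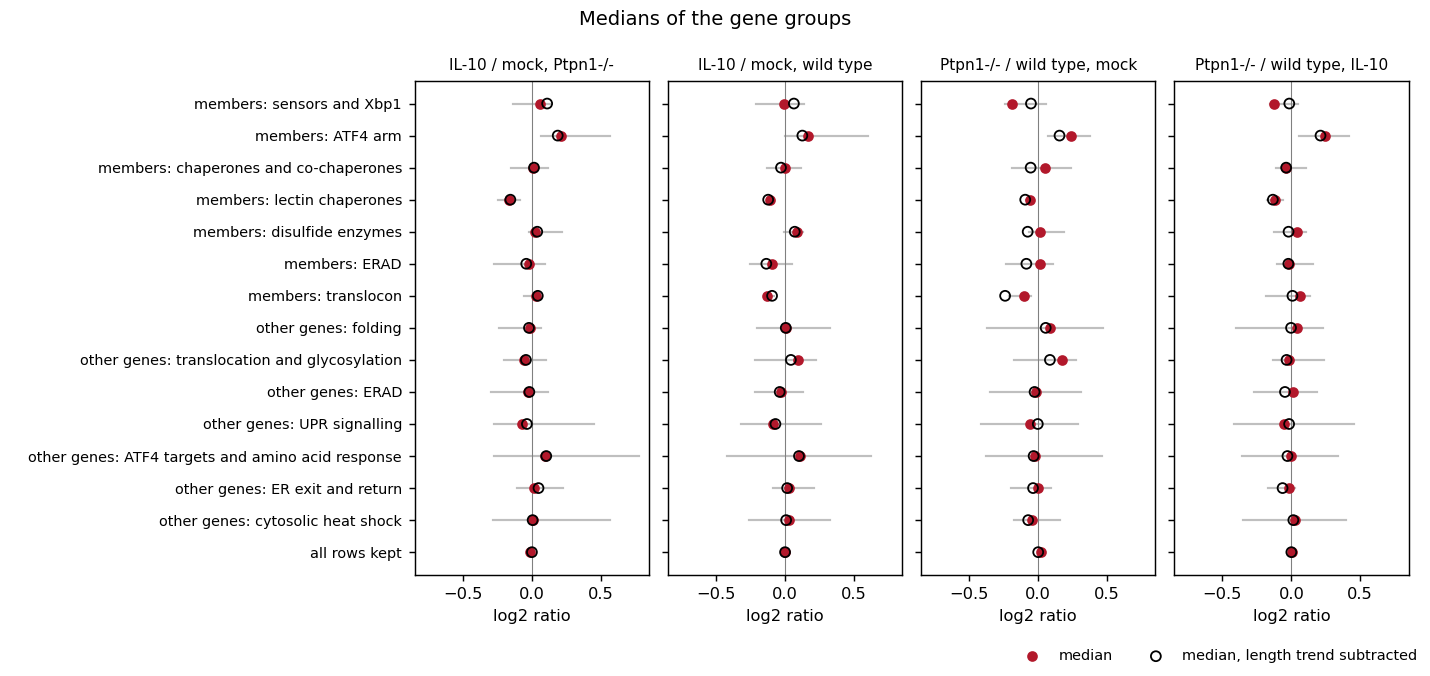
Median log2 ratio (filled points), the same with the trend over transcript length subtracted (open points) and the range from the lowest to the highest gene (grey lines) of the 7 roles and 7 further lists in 4 comparisons, with the median of all rows at the bottom. The ATF4 arm has medians of 0.21, 0.17, 0.24 and 0.25 from left to right.

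Markers of several cell types differed with genotype, and some with IL-10. The 8 macrophage markers all passed the filter, and their median genotype log2 ratio was -0.04 in mock cells and -0.08 in those given IL-10. Single markers differed in both directions, with Lyz2 at -1.41 under mock and Fcgr1 at 0.79. The summed macrophage signal was 460756.5 and 460680.0 units in Ptpn1-/- cells with IL-10 and mock, against 553540.0 and 645695.5 in wild type. Most of it was Lyz2 and Cd68, which went opposite ways by genotype. Lyz2 stood at 136851.5 units in both knockout groups, against 272813 and 362618 in wild type with IL-10 and mock. The wild-type mock value of Lyz2 is the highest of all values, and 8 rows of that column share it. The differences of Lyz2 from wild-type mock and the sum of that group thus rest on a tied top value. Cd68 stood at 272612 units in both knockout groups, against 226524 in both of wild type. The exact ties of Lyz2 and Cd68 between groups need not be measured equalities. The lower sum in the knockout thus follows Lyz2 and does not count macrophages. The summed signal of 9 mesothelial and fibroblast markers was 19900.5 and 20010 units in Ptpn1-/- cells with IL-10 and mock, against 31872 and 33241.5 in wild type, and none of the 8 kept was above 0 for genotype. That of 5 monocyte markers was 1309.5 and 812.5 units in Ptpn1-/- cells, against 731 and 443.5 in wild type. Most of it was Ccr2, at IL-10 log2 ratios of 0.75 and 0.74. With IL-10 all 5 monocyte markers were above 0 in Ptpn1-/- cells and 3 of 5 in wild type, where 45.2% and 49.6% of all rows were. Between the genotypes all 5 were above 0 under mock and with IL-10 (medians 0.61 and 0.98), where 53.5% and 51.8% of all rows were. The 5 plasma and B cell markers with a row, from cells rich in this machinery, summed to 12509 and 11020 units in Ptpn1-/- cells, against 12665 and 11822 in wild type. Mast cell markers summed to 525 and 456.5 units in Ptpn1-/- cells, against 337.5 and 316 in wild type, and those of neutrophils, dendritic cells and eosinophils to at most 520 units in a group. The dendritic cell marker Cd209a had IL-10 log2 ratios of 1.26 in Ptpn1-/- and 1.43 in wild type, and the eosinophil sum was 520 and 424.5 units in Ptpn1-/- cells with IL-10 and mock, against 488.5 and 362.5 in wild type. The 6 markers of T and NK cells had no row. The part of these cells in the IL-10 and genotype differences of the ATF4 arm, Sec61a1 and Eif2ak3 was not tested.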

How the data were processed

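RNA was sequenced from 4 groups of 2 labelled samples. The authors deposited 1 normalized expression signal per gene and group, named CPM, although each column sums to 26705598 and all values are multiples of 0.5. The submitters' processing notes list RSEM, Bowtie and mm9 but no version or role. How the values were normalized and genes filtered is not given in the sources used here. Equal values recur between columns at like ranks. Pdia3 has 12187.5 units in Ptpn1-/- mock (rank 295) and wild-type mock (rank 296). Ddit3 has 607.5 units in wild type with IL-10 (rank 5947) and mock (rank 5932). A tie between 2 groups thus need not be a measured equality, and whether the processing made such ties was not tested. Depth cannot be read from equal column totals, so no counting interval is given. No column was left unused.

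Rows with a mean of at least 1 ppm of the column total (26.7 units) were kept, 1 ppm was added, and log2 ratios were taken with pandas 2.3.3 in Python 3.11.15. No test was possible with 1 value per group, so members were read against all rows kept at 1.5-fold. The highest row stood for a name on several rows. Lengths are those of the longest GENCODE M21 transcript, and the length trend is a running median over length. The ratio and trend steps were tested on simulated data.

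The members, roles, lists and limits were chosen with earlier results of these data known. The 3 members with the largest difference in each direction in each comparison are given in all 4 groups, as are any pathway genes past 1.5-fold. Other genes are named by role, and Mthfd2 and Slc7a11 were picked after their values were seen. Promoter sequences are RefSeq's on GRCm38.p6. The alternatives were other pseudocounts, filters and fold limits, centring, trends subtracted over length or signal, Calr left out, and summed rows.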

Additional observations from a re-analysis of the deposited data

How the results depend on the processing

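No paired analysis was possible because the columns carry no replicate number and hold 1 value per group, and for the same reason no replicate could be left out. Medians of the 37 genes, of the ATF4 arm and of the other members moved by at most 0.1 under every alternative tried. The count of genes at least 1.5-fold higher with IL-10 in wild type, 1 as reported, was 0 with a pseudocount of 4 ppm, 0 with the length trend subtracted and 0 at a limit of 2-fold, since Chac1 then stood at 0.43, 0.54 and 0.60. With a pseudocount of 0.25 ppm the count for IL-10 in Ptpn1-/- cells was 1 in place of 0. At a limit of 0.32 on the log2 scale the counts higher were 2 for IL-10 in Ptpn1-/- cells, 2 for IL-10 in wild type, 3 for genotype under mock and 2 with IL-10. The genotype differences of Ddit3, Chac1 and Trib3 under mock shrank to 0.15, 0.19 and 0.26 with the length trend subtracted, and that of Ern1 to -0.06. No called value changed sign. Without values per sample, none of these differences could be set against replicate spread.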

Other observations

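The genes in this section were picked out after their values were seen. Within the list of ATF4 targets, the 11 aminoacyl-tRNA synthetases, which charge tRNAs with amino acids, had small IL-10 differences, mostly above 0. In Ptpn1-/- cells 10 of 11 were above 0 (median log2 ratio 0.10, range -0.01 to 0.15), and in wild type 10 of 11 were above 0 (median 0.09, range -0.02 to 0.14), where 45.2% and 49.6% of all rows were. Between the genotypes 4 of 11 were above 0 under mock and 4 of 11 with IL-10, with medians of -0.01 and 0.00.

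Eif2ak2, the interferon-inducible kinase PKR that senses double-stranded RNA and phosphorylates eIF2 alpha, stood at 1157 and 838 units in Ptpn1-/- cells with IL-10 and mock, and at 838.5 and 780.0 in wild type. Its highest group was Ptpn1-/- with IL-10, and the difference between the IL-10 responses of the genotypes was 0.35, under the limit of 1.5-fold. Cebpb, a partner of ATF4 at composite elements, stood at 3738 and 2939 units in Ptpn1-/- cells with IL-10 and mock, and at 3051 and 3085 in wild type, a difference of 0.36 between the responses. Of the 128 further genes 3 were above 0.32 in this difference and 1 below -0.32, where 6.55% of all rows passed either way. Besides Eif2ak2 and Cebpb these were Hspa1a at 0.40 and Ddit4, of at most 76 units in a group, at -0.44. Hspa8, the constitutive cytosolic Hsp70, stood at 63705 and 42937 units in Ptpn1-/- cells with IL-10 and mock, and at 48437 and 38724.5 in wild type, with IL-10 log2 ratios of 0.57 and 0.32. It is 1 of the 146 rows with a mean above 20000 units.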
